A study of Mus musculus with 24 samples.

Results

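Facilitative glucose transporters carry glucose across membranes down its concentration gradient, and the abundance and placement of a few isoforms help set how much glucose a muscle cell can take up. These data hold RNA only, so transporter protein, its placement and glucose uptake are not covered. This account follows 9 genes in C2C12 myotubes, of which 7 encode transporters of the SLC2 (GLUT) family and 2 encode alpha-arrestins. They were taken by symbol, through the Ensembl identifiers of the GRCm38 annotation, from a table that lists 55487 genes. Of the 9 members, 8 were tested, and Slc2a12 was too low to test.

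C2C12 is a clonal mouse myoblast line that fuses into contracting myotubes in culture, so the cultures share 1 genotype, and myoblasts that have not fused can remain among the myotubes. All 24 cultures were differentiated to day 5 under 5 % O2, and 6 biological replicates went into each of 4 groups. In 5 % CTRL and 1 % CTRL the myotubes spent 2 h under 5 % or 1 % O2 without stimulation. In 5 % STIM and 1 % STIM the same 2 h were followed by repeated bouts of electrical stimulation at that O2 level, and RNA was collected at once. The study's methods change the medium before and after stimulation and do not say whether unstimulated cultures had the same changes. They describe medium equilibrated at 5 % O2, and the bouts came after the 2 h. Effects of stimulation, of fresh medium, of the O2 it carried and of a longer exposure cannot be told apart here.

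GLUT1, encoded by Slc2a1, sits in the plasma membrane of most cells and supplies basal glucose uptake, and Slc2a1 is a textbook target of the hypoxia-inducible factors. GLUT4, encoded by Slc2a4, is the muscle and fat isoform that is held in vesicles and moved to the surface by insulin or contraction, while GLUT3, encoded by Slc2a3, is a high-affinity transporter best known from neurons. Txnip and its paralog Arrdc4 encode alpha-arrestins that restrain glucose uptake, Txnip also binds thioredoxin, and both genes are read by the glucose-sensing factor pair MondoA and Mlx through paired E-box-like elements.

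The upstream sequences of 3 members are shown because their genes are described above as targets of such factors and moved in opposite directions under 1 % O2. RefSeq (GRCm38.p6) had an entry for 7 of the 9 members. Slc2a3 and Slc2a4 had none. Each line gives the strand of the gene, 5′ to 3′, with capitals marking matches on either strand. It ends just before the gene start of RefSeq or GENCODE, whichever comes first. For Slc2a1 that is 34 bases short of the RefSeq start, and for Arrdc4 3 bases short. Positions given below count from the RefSeq start. The motifs searched were ACGTG, which is the core that hypoxia-inducible factors bind, a form of that core that starts with G and is written GCGTG, the E-box with the letters CACGTG, and a pair of CACGNG with 5 bases between them. On the other strand GCGTG reads as CACGC here.
Slc2a1, chr4:119108495-119108710, plus strand: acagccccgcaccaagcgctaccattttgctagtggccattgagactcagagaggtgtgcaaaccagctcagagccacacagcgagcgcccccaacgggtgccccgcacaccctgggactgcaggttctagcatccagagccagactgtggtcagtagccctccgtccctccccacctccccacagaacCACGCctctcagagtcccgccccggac
Txnip, chr3:96557707-96557956, plus strand: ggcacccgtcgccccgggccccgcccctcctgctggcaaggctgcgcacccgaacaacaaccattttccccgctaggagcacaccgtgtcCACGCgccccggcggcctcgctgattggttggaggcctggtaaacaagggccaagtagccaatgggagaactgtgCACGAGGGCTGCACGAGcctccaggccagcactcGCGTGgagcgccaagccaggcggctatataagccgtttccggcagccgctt
Arrdc4, chr7:68749242-68749488, minus strand: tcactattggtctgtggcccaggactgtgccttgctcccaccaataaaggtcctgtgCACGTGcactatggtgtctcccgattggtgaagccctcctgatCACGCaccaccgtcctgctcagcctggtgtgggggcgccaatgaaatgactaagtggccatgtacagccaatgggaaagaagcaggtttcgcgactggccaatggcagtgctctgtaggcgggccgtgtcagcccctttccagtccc

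The 250 bases upstream of the RefSeq start were searched on both strands in 32851 promoter entries. The pair of CACGNG was in the Txnip window, from 85 to 69 bases before the start, and in 0.0457 % of all promoters (15). The Arrdc4 window held no such pair. CACGTG was in the Arrdc4 window at 193 to 188 bases before the start and in 6.02 % of all promoters, and the ACGTG match in Arrdc4 lay inside it. Slc2a1 held GCGTG on the minus strand at 61 to 57 bases before the start and ACGTG at 36 to 32 bases before it. The second match straddles the GENCODE gene start, so that its first bases end the printed line and the rest, inside the first exon, is not printed. Across all promoters these 2 cores were in 28.2 % (GCGTG) and 16.6 % (ACGTG) of windows. GCGTG was also in the windows of Slc2a6, at 4 sites, Slc2a8, Txnip and Arrdc4, and the windows of Slc2a10 and Slc2a12 held none of the 4 motifs. These matches are descriptions of letters, and no binding was measured.

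Libraries held 26541858 to 28173745 reads. Values are normalized counts, which are gene counts divided by the size factor of the library. Differences are log2 fold changes of (normalized count + 1) from a single limma fit over all 24 libraries, called at a Benjamini-Hochberg adjusted p under 0.05 over 14541 genes. Replicate 1 of 1 % CTRL stood apart from its group, with a mean squared log2 deviation of 0.139 against at most 0.0871 in the other 23 libraries. Its summed markers of undifferentiated or cycling myoblasts (Pax7, Myf5, Mki67, Top2a, Ccnb1) reached 5560 against 3551 to 4540 in the rest of the group. Defining myotube markers were abundant, with the sum of 8 genes between 391708 and 493558 in all libraries. Adipocyte markers summed to at most 7.22, endothelial markers to at most 15.2 and leukocyte markers, of which Ptprc and Adgre1 were not tested, to at most 70.5.

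At 5 % O2 without stimulation, Txnip and Slc2a1 were the most abundant members per length and Slc2a6 was next, while Slc2a4, the isoform that muscle is known for, was far below them. Levels were compared between genes as normalized counts per kb of exon. Txnip had a level of 1114 ± 7.90 (SD, n = 6), Slc2a1 802 ± 33.4 and Slc2a6 199 ± 17.2. Slc2a6 encodes GLUT6, which is mostly found inside cells. Below it came Slc2a8 (GLUT8, also intracellular) at 28.3 ± 3.64, Slc2a4 at 22.2 ± 3.92 and Slc2a10 (GLUT10) at 16.2 ± 3.37. Arrdc4 had 9.47 ± 1.98, Slc2a3 1.25 ± 0.416 and Slc2a12 (GLUT12) 0.447 ± 0.359.

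Neighbours in that order were separated from Txnip down to Slc2a8, with no overlap of their 6 libraries. The ratio of Slc2a1 to Slc2a6 was 4.02 and that of Slc2a6 to Slc2a8 was 7.05. Slc2a8 and Slc2a4 overlapped in range, as did Slc2a4 and Slc2a10, although the first gene of each pair was higher in 6 of 6 libraries. For 7 of the 8 neighbour pairs the two-sided exact sign-flip permutation test gave p = 0.03125, which is the smallest that 6 libraries allow, and an adjusted p of 0.0357 over the 8 pairs. Slc2a3 and Slc2a12 overlapped and were not separated (exact sign-flip permutation test, p = 0.0625, higher in 5 of 6 libraries). The order was taken from the means of these same 6 libraries, so these tests describe only how steady it was between them. Every member kept its place when length was that of the longest transcript or was left out.

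**Figure D1:**
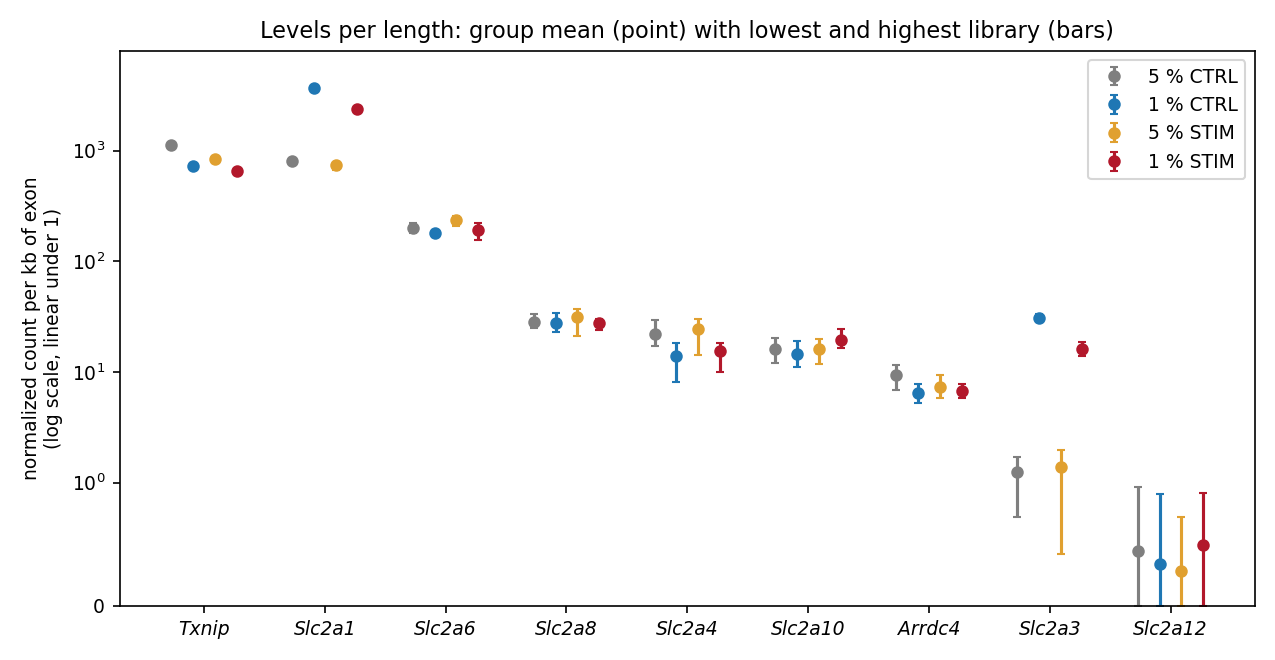
Normalized counts per kb of exon (y axis, log scale that is linear under 1) of the 9 members (x axis, in the order of 5 % CTRL) in the 4 groups. Points are means and bars run from the lowest to the highest of 6 libraries. Slc2a1 passed Txnip under 1 % O2 and Slc2a3 moved from 1.25 to 30.5 between 5 % CTRL and 1 % CTRL.

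The order changed under 1 % O2. In 1 % CTRL, Slc2a1 had a level of 3676 ± 76.6 per kb (SD, n = 6) against 734 ± 29.7 for Txnip. Slc2a3, which was next to last in 5 % CTRL, stood at 30.5 ± 2.32 per kb, beside Slc2a8 at 27.7 ± 4.36, and above Slc2a4 at 14.0 ± 3.45. In 1 % STIM it was at 16.1 ± 1.92 per kb, in a range that overlapped those of Slc2a10 and Slc2a4, while Slc2a8 was higher at 27.7 ± 2.25.

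Exposure to 1 % O2 without stimulation moved 5 of the 8 tested members, with Slc2a1 and Slc2a3 higher and Slc2a4, Txnip and Arrdc4 lower. Over all genes tested, 29.4 % were called higher and 30.5 % lower in this comparison, so a call of itself was common here. The median log2 fold change was −0.15 over the tested members and 0.00 over all genes tested. In stimulated myotubes the same O2 difference again moved 5 members, against backgrounds of 29 % higher and 28.4 % lower, with Slc2a1 and Slc2a3 higher and Slc2a4, Slc2a6 and Txnip lower. There the medians were −0.14 and −0.00. RNA came from whole cultures, so fewer cells with a transcript and less of it per cell cannot be told apart.

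Slc2a1 (ENSMUSG00000028645, chromosome 4, 119108711 to 119137983) ran from 2684 to 2996 normalized counts in 5 % CTRL, with a median of 2824. In 1 % CTRL it ran from 12550 to 13238, with a median of 12928. The 2 groups were far apart, and the spread within each was narrow. The means were 2813 ± 117 and 12888 ± 269 (SD, n = 6), a ratio of 4.58, and the log2 fold change was 2.20 (standard error 0.0328, limma adjusted p = 1.21e-32).

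After stimulation Slc2a1 ran from 2364 to 2712 in 5 % STIM, with a median of 2646, and from 7872 to 8683 in 1 % STIM, with a median of 8369. Again the O2 levels did not overlap, but the 1 % STIM libraries all lay below the 1 % CTRL libraries. The log2 fold change between O2 levels was 1.67 (standard error 0.0328, limma adjusted p = 2.88e-29), a ratio of means of 3.19.

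Slc2a3 (ENSMUSG00000003153, chromosome 6, 122727809 to 122801640, minus strand) was close to the detection limit at 5 % O2. In 5 % CTRL its 6 libraries ran from 5.24 to 12.3 normalized counts with a median of 9.38, and they held 53 reads together. Under 1 % O2 they ran from 205 to 244 with a median of 219, from 1377 reads. Every 1 % CTRL library stood far above every 5 % CTRL library. The ratio of means was 24.4, and the log2 fold change was 4.52 (standard error 0.225, limma adjusted p = 5.54e-17), a value that the added 1 pulls down for so low a gene.

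In 5 % STIM Slc2a3 ran from 3.06 to 14.3 with a median of 11.1, and in 1 % STIM from 101 to 136 with a median of 113. The groups did not overlap. The ratio of means was 11.7 and the log2 fold change 3.53 (standard error 0.225, limma adjusted p = 2.68e-14). Of the 75-base words in its transcripts, 0.52 % occur in transcripts of other genes, and how many reads came from those genes was not tested.

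The pair of high responders did not respond equally. The per-library log2 difference between Slc2a3 and Slc2a1 rose by 2.32 from 5 % CTRL to 1 % CTRL and by 1.85 from 5 % STIM to 1 % STIM, with no overlap between groups in either case. Each gave p = 0.0022 in a two-sided exact permutation test, the smallest that 6 against 6 libraries allow, and 0.00649 after adjustment over 12 such differences. With a pseudocount of 10 the 2 differences were 1.42 and 1.01.

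Slc2a4 (ENSMUSG00000018566, chromosome 11, 69942539 to 69948188, minus strand) moved the other way. It ran from 60.4 to 102 normalized counts in 5 % CTRL, with a median of 75.0, and from 28.6 to 63.3 in 1 % CTRL, with a median of 50.1. The groups overlapped at their edges. The mean was 37.0 % lower under 1 % O2, with a log2 fold change of −0.68 (standard error 0.179, limma adjusted p = 0.00154).

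In stimulated myotubes Slc2a4 ran from 50.0 to 104 under 5 % O2, with a median of 89.4 and, after Slc2a3, the widest relative spread of a tested member in that group. Under 1 % O2 it ran from 35.1 to 63.4 with a median of 55.4. These groups overlapped as well. The log2 fold change was −0.61 (standard error 0.179, limma adjusted p = 0.00402). Relative to Slc2a1 in the same library, Slc2a4 shifted by −2.88 between the unstimulated groups and by −2.29 between the stimulated ones (log2, two-sided exact permutation test, p = 0.0022 and adjusted p = 0.00649 for each, no overlap).

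Some markers of the myotube state moved beside the fall of Slc2a4. Of the 8 myotube markers, 5 were called lower and 0 higher under 1 % O2 without stimulation, and 6 lower and 0 higher with it (limma). Over all genes tested, 30.5 % were lower and 29.4 % higher without stimulation, and 28.4 % and 29 % with it. Their summed level was 451206 to 493558 in 5 % CTRL and 394097 to 439230 in 1 % CTRL. Myog, the myogenin gene that drives terminal differentiation, had means of 30613 in 5 % CTRL and 19439 in 1 % CTRL. Between these groups Acta1, Des and Mymk were not called, at log2 fold changes of 0.02, 0.03 and 0.04. Of the 5 markers of undifferentiated or cycling myoblasts, 3 were called higher and 1 lower in either comparison. Myog also had lower means after stimulation, at 21265 in 5 % STIM and 12522 in 1 % STIM. Slc2a4 was not called with stimulation at either O2 level. The part of these shifts in the Slc2a4 values was not tested.

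Of the 3 remaining tested transporters, Slc2a6 was called between O2 levels in stimulated myotubes only, and Slc2a8 and Slc2a10 in neither comparison. Slc2a6 (ENSMUSG00000036067, chromosome 2, 27021363 to 27027998, minus strand) ran from 581 to 716 in 5 % CTRL and from 530 to 614 in 1 % CTRL, with medians of 622 and 583. The log2 fold change was −0.14 (95 % confidence interval −0.29 to −0.00, limma adjusted p = 0.0771), and it was called without replicate 3 of 5 % CTRL (adjusted p = 0.0448) or replicate 5 of 1 % STIM (adjusted p = 0.042). In stimulated myotubes it was called lower, from 667 to 829 under 5 % O2 (median 782) to 497 to 709 under 1 % O2 (median 608). That log2 fold change was −0.33 (standard error 0.0699, limma adjusted p = 0.000193), and the groups overlapped.

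Slc2a8 (ENSMUSG00000026791, chromosome 2, 32972990 to 32982083, minus strand) had means of 90.8 and 88.8 under 5 % and 1 % O2 without stimulation and of 101 and 88.8 with it, and ran from 68.1 to 118 over all 24 libraries. Its log2 fold change under 1 % O2 was −0.04 (95 % confidence interval −0.28 to 0.20) without and −0.16 (−0.40 to 0.08) with stimulation. Slc2a10 (ENSMUSG00000027661, chromosome 2, 165503787 to 165519917) ran from 39.3 to 86.7 over all libraries. Under 1 % O2 it changed by −0.16 (−0.46 to 0.14) and 0.27 (−0.03 to 0.57). None of these 4 values was called, and the intervals bound them to at most 0.57 in size. The value of Slc2a8 in stimulated myotubes was called without replicate 6 of 5 % STIM (−0.27, limma adjusted p = 0.0355).

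Slc2a12 (ENSMUSG00000037490, chromosome 10, 22645011 to 22704285) was the member at the limit of detection. Its highest library had 4.09 normalized counts, 6 of 24 libraries were at 0, and all libraries together held 40 reads. A count of 0 allows up to 3 reads in a library, by counting error alone. Tbpl1, on the opposite strand, overlaps 9.61 % of its exon bases and had 892 to 1208 normalized counts, and the counting did not use strand, so even these few reads may belong to either gene.

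**Figure D2:**
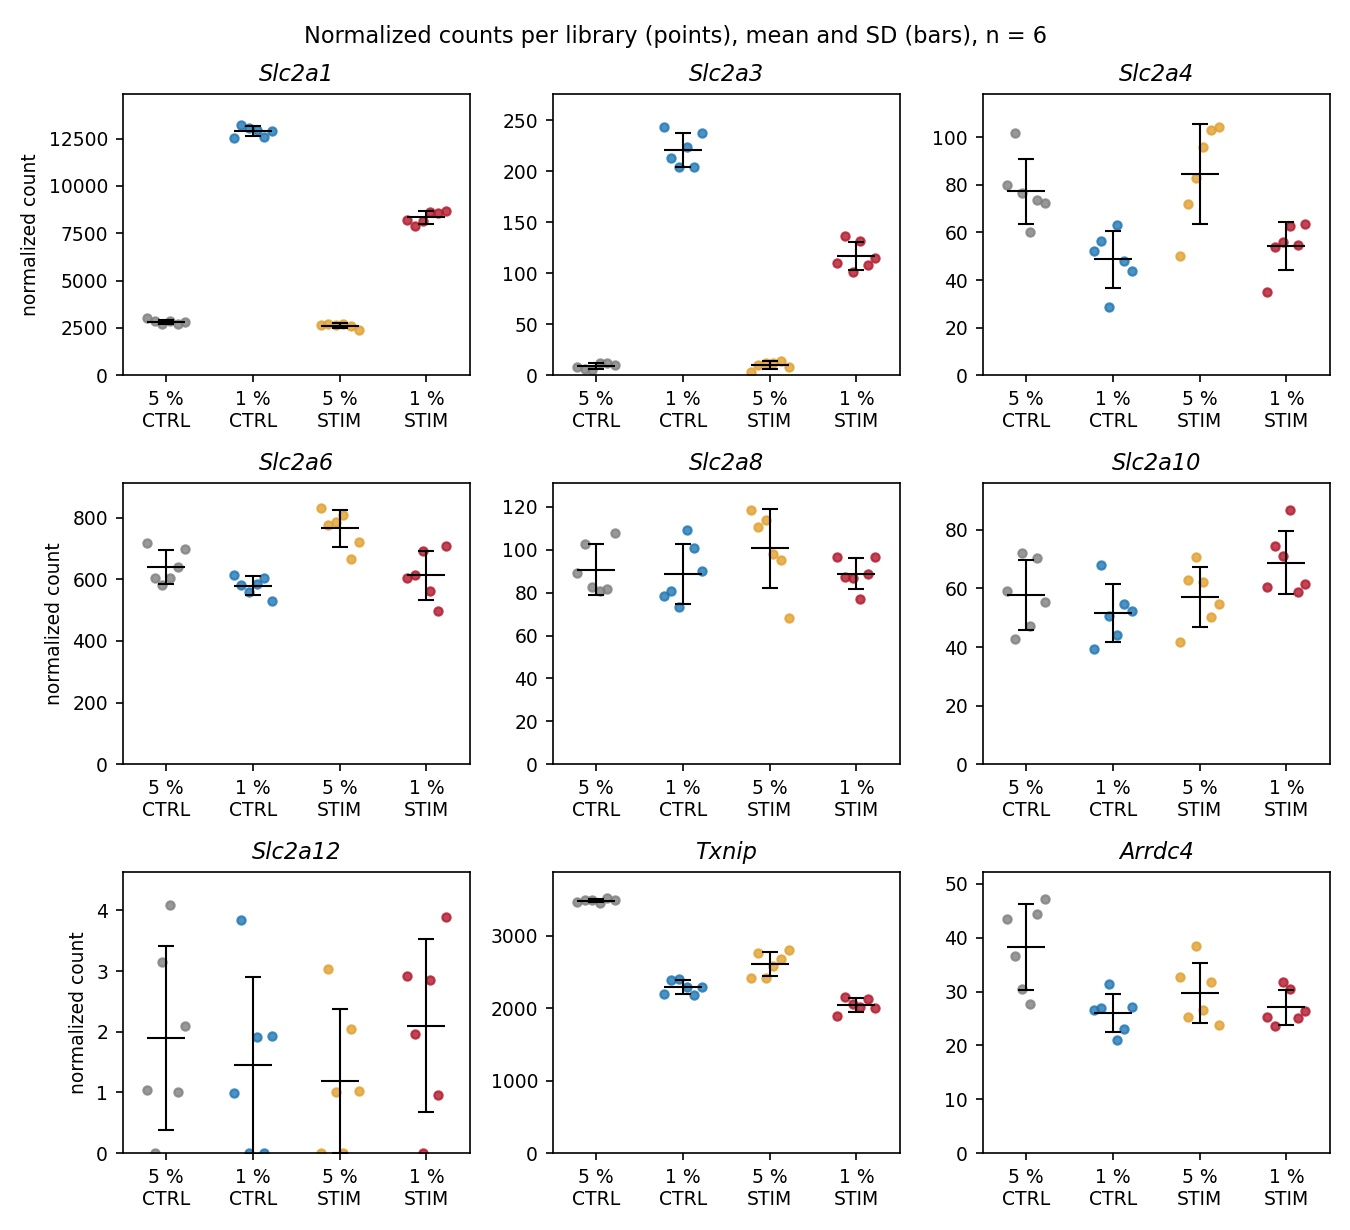
Normalized counts (y axes, each starting at 0) of the 9 members in the 24 libraries (points), by group (x axes), with the mean and SD of 6 libraries as bars. Slc2a1 and Slc2a3 separate fully by O2 level, Txnip is highest in 5 % CTRL, and Slc2a12 stays at or under 4.09.

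Txnip (ENSMUSG00000038393, chromosome 3, 96557957 to 96561883) fell under 1 % O2. In 5 % CTRL it ran from 3446 to 3513 normalized counts with a median of 3484, the tightest group of any member. In 1 % CTRL it ran from 2179 to 2398 with a median of 2289. The groups lay well apart. The mean fell from 3480 ± 24.7 to 2291 ± 92.7 (SD, n = 6), with a log2 fold change of −0.60 (standard error 0.0367, limma adjusted p = 5.68e-16).

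In stimulated myotubes Txnip ran from 2409 to 2802 under 5 % O2, with a median of 2629, and from 1886 to 2148 under 1 % O2, with a median of 2036. The log2 fold change was −0.35 (standard error 0.0367, limma adjusted p = 3.77e-10), and the groups did not overlap. The antisense gene Gm15441 covers 19.4 % of the exon bases of Txnip, and it had at most 3.07 normalized counts in any library.

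Arrdc4 (ENSMUSG00000042659, chromosome 7, 68736995 to 68749241, minus strand) was far less abundant than Txnip per length. It ran from 27.6 to 47.1 in 5 % CTRL, with a median of 40.1, and from 21.1 to 31.4 in 1 % CTRL, with a median of 26.7. The groups overlapped in part, and its log2 fold change was −0.52 (standard error 0.157, limma adjusted p = 0.0046). In stimulated myotubes the ranges were 23.7 to 38.4 under 5 % O2 and 23.5 to 31.8 under 1 % O2, and the log2 fold change of −0.12 (95 % confidence interval −0.44 to 0.20) was not called.

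Whether the paralogs differed in their response was tested directly. The log2 difference between Arrdc4 and Txnip changed by 0.08 between the unstimulated O2 groups and by 0.23 between the stimulated ones. Neither passed the exact permutation test (two-sided, adjusted p = 0.659 and 0.247 over the 12 differences).

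Fewer members were called for stimulation than for O2, as was the case over all 14541 genes tested. There, stimulation gave 3115 calls at 5 % O2 and 3245 at 1 % O2. The O2 difference gave 8708 without and 8346 with stimulation. At 5 % O2, 3 of the 8 tested members were called between 5 % STIM and 5 % CTRL, with Slc2a6 higher and Slc2a1 and Txnip lower, where 9.44 % of all genes tested were called higher and 12 % lower. At 1 % O2, 4 were called between 1 % STIM and 1 % CTRL, with Slc2a10 higher and Slc2a1, Slc2a3 and Txnip lower, against 11.5 % and 10.8 %. The median log2 fold changes of the members were 0.03 and 0.03, and those of all genes tested were −0.01 and −0.00. These comparisons share their groups with the O2 comparisons, so the values above enter both.

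The fall of Slc2a1 with stimulation was large at 1 % O2 and slight at 5 % O2. From 1 % CTRL to 1 % STIM the mean went from 12888 to 8337 ± 325, lower by 35.3 %, without overlap, and the log2 fold change was −0.63 (standard error 0.0328, limma adjusted p = 9.39e-17). From 5 % CTRL to 5 % STIM it went from 2813 to 2614 ± 127, lower by 7.07 %, and the groups overlapped. That log2 fold change was −0.11 (standard error 0.0328, limma adjusted p = 0.0175). The call at 5 % O2 was lost when libraries were rescaled to the same total (−0.07, adjusted p = 0.116), without replicate 1 of 5 % CTRL (−0.09, adjusted p = 0.0595) and without replicate 6 of 5 % STIM (−0.08, adjusted p = 0.0712).

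Slc2a3 also fell with stimulation at 1 % O2, from 221 ± 16.8 in 1 % CTRL to 117 ± 13.9 in 1 % STIM, with no overlap and with −0.92 as its log2 fold change (standard error 0.225, limma adjusted p = 0.00273). At 5 % O2 its values of 9.08 ± 3.02 and 10.03 ± 3.98 overlapped, and the log2 fold change of 0.07 (95 % confidence interval −0.39 to 0.53) was not called. Relative to Slc2a1, Slc2a3 shifted by −0.29 with stimulation at 1 % O2 (two-sided exact permutation test, p = 0.0173, adjusted p = 0.0346), and the 2 groups overlapped. This difference lost its call without any one of 7 libraries. The adjusted p without them was 0.0693 for replicates 1 and 6 of 1 % CTRL and 1, 3, 5 and 6 of 1 % STIM, and 0.0606 for replicate 4 of 1 % CTRL.

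Slc2a4 was not called with stimulation at either O2 level, with log2 fold changes of 0.10 (95 % confidence interval −0.26 to 0.47) at 5 % O2 and 0.17 (−0.19 to 0.54) at 1 % O2. Because Slc2a1 fell at 1 % O2, Slc2a4 rose relative to Slc2a1 in the same library by 0.80 between 1 % CTRL and 1 % STIM (two-sided exact permutation test, p = 0.0043, adjusted p = 0.0104). At 5 % O2 that relative shift was 0.21 and did not pass (exact permutation test, adjusted p = 0.418).

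Slc2a6 was higher after stimulation at 5 % O2, with means of 641 ± 55.3 and 764 ± 60.7 and with 0.26 as its log2 fold change (standard error 0.0699, limma adjusted p = 0.00801), although the groups overlapped. At 1 % O2 its log2 fold change of 0.07 (95 % confidence interval −0.07 to 0.22) was not called. Slc2a8 was called at neither O2 level, at 0.13 (−0.11 to 0.38) and 0.01 (−0.23 to 0.25).

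Slc2a10 ran from 39.3 to 68.1 normalized counts in 1 % CTRL, with a median of 51.4, and from 58.7 to 86.7 in 1 % STIM, with a median of 66.3. The groups overlapped, and its log2 fold change was 0.42 (standard error 0.147, limma adjusted p = 0.0365). This call did not survive the removal of any one of 6 libraries (replicates 1, 3 and 4 of 1 % CTRL and 2, 3 and 4 of 1 % STIM, adjusted p = 0.0571 to 0.104), the first of which is the library that stood apart. At 5 % O2 the log2 fold change of Slc2a10 was −0.01 (95 % confidence interval −0.31 to 0.29).

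Txnip fell with stimulation at both O2 levels. At 5 % O2 the mean went from 3480 to 2609 ± 169, lower by 25.0 %, with a log2 fold change of −0.42 (standard error 0.0367, limma adjusted p = 6.67e-11). At 1 % O2 it went from 2291 to 2039 ± 94.9, lower by 11.0 %, with a log2 fold change of −0.17 (standard error 0.0367, limma adjusted p = 0.000667). Neither pair of groups overlapped.

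Arrdc4 had log2 fold changes of −0.35 (95 % confidence interval −0.67 to −0.03, limma adjusted p = 0.12) at 5 % O2 and 0.06 (−0.26 to 0.38) at 1 % O2 and was not called. Its response differed from that of Txnip by 0.07 at 5 % O2 (exact permutation test, adjusted p = 0.693) and by 0.23 at 1 % O2 (exact permutation test, adjusted p = 0.0965), and neither passed. The second difference passed with a pseudocount of 10 (0.21, exact permutation test, adjusted p = 0.0445) and without replicate 2 of 1 % STIM (0.28, exact permutation test, adjusted p = 0.0371).

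**Figure D3:**
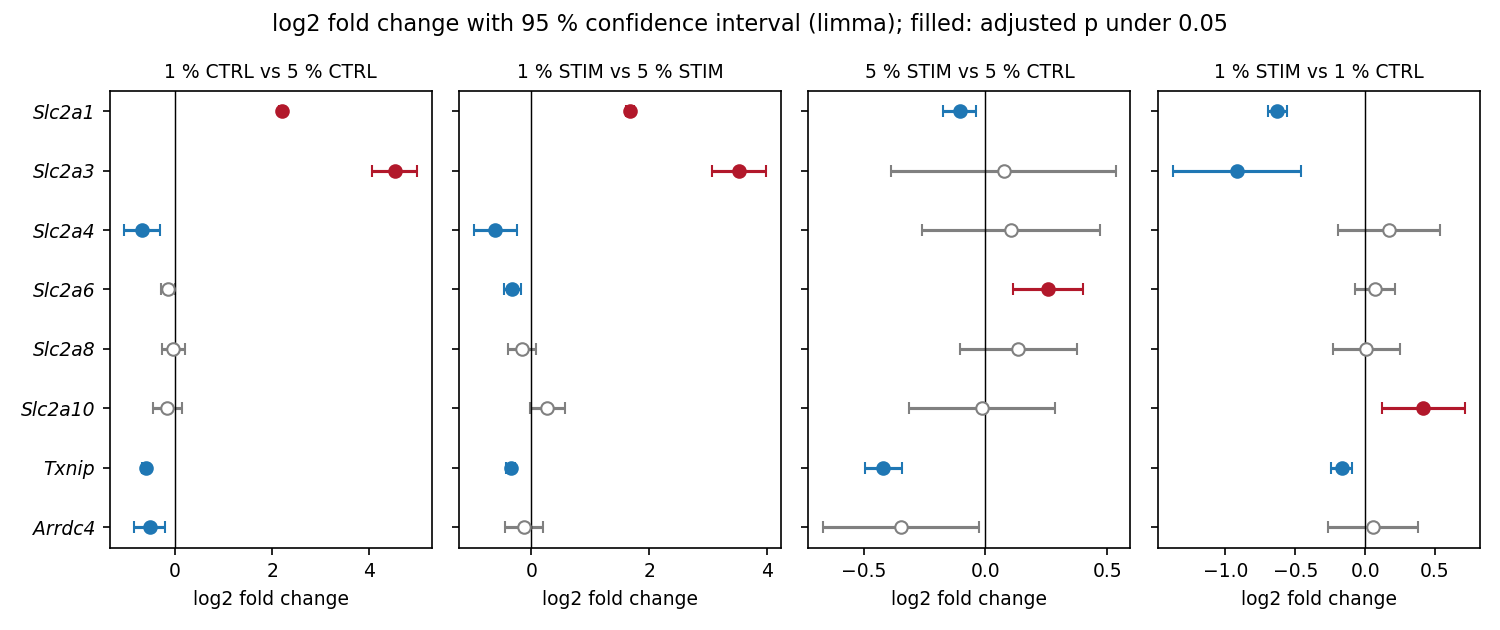
log2 fold change (x axes, with a scale of their own in each panel) of the 8 tested members (y axis) in the 4 comparisons, with 95 % confidence intervals from limma. Filled red points were called higher, filled blue points lower, and open grey points were not called. Slc2a1 reached 2.20 and Slc2a3 4.52 between the unstimulated O2 groups, and all stimulation effects lay between −0.92 and 0.42.

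The response to stimulation differed between O2 levels for 3 members, as tested by the interaction term, which is the response at 1 % O2 minus that at 5 % O2. Over all genes tested, 5.88 % had a positive and 5.43 % a negative interaction called. Slc2a1 had −0.52 (standard error 0.0464, limma adjusted p = 4.02e-10) and Slc2a3 −0.99 (standard error 0.318, limma adjusted p = 0.0396). Txnip had 0.25 (standard error 0.0519, limma adjusted p = 0.00115), with the smaller fall at 1 % O2. Equally, the O2 response of each of these genes was smaller in size after stimulation.

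The interaction of Slc2a3 rested on few reads at 5 % O2 and was fragile. It lost its call when any one of 14 libraries was left out, with adjusted p between 0.0504 and 0.0769. These were replicates 1, 2 and 3 of 5 % CTRL, replicates 2, 4, 5 and 6 of 1 % CTRL, replicates 2, 3, 4 and 5 of 5 % STIM and replicates 1, 3 and 5 of 1 % STIM. On whole reads it was −1.06 with an adjusted p of 0.0111 in edgeR's quasi-likelihood test. The other 5 tested members had no interaction called, Arrdc4 at 0.40 (95 % confidence interval −0.05 to 0.86) and Slc2a10 at 0.43 (0.01 to 0.85, limma adjusted p = 0.192) being the highest.

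The make-up of the transporter transcripts shifted with both treatments. Each library's normalized counts per kb were summed over the 7 transporters, and the share of Slc2a1 was taken. Without stimulation the sum was 1070 ± 45.6 under 5 % O2 and 3943 ± 71.8 under 1 % O2, and with stimulation it was 1057 ± 50.4 and 2648 ± 93.0 (SD, n = 6), so that 1 % CTRL had 3.68 times the sum of 5 % CTRL.

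Slc2a1 took 75.0 % ± 1.19 of that sum in 5 % CTRL and 93.2 % ± 0.393 in 1 % CTRL. In stimulated myotubes it took 70.5 % ± 1.04 under 5 % O2 and 89.8 % ± 0.992 under 1 % O2. All 4 differences, of 18.2, 19.3, −4.44 and −3.42 percentage points for O2 without and with stimulation and for stimulation at 5 % and 1 % O2, gave the smallest p that a two-sided exact permutation test of 6 against 6 libraries allows (p = 0.0022, adjusted over 4 p = 0.0022). In each comparison the 2 groups did not overlap.

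Most of the rest was Slc2a6. Its share was 18.6 % ± 1.07 under 5 % O2 and 4.57 % ± 0.293 under 1 % O2 without stimulation, and 22.5 % ± 1.3 and 7.21 % ± 0.935 with it. Slc2a4 took 2.08 % ± 0.359, 0.355 % ± 0.0866, 2.32 % ± 0.650 and 0.589 % ± 0.102 in the same order. For all its rise, Slc2a3 took at most 0.873 % in any library. The lower share of Slc2a6 under 1 % O2 without stimulation came mostly from the higher sum. Its own counts, with means of 641 in 5 % CTRL and 579 in 1 % CTRL, were not called lower.

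**Figure D4:**
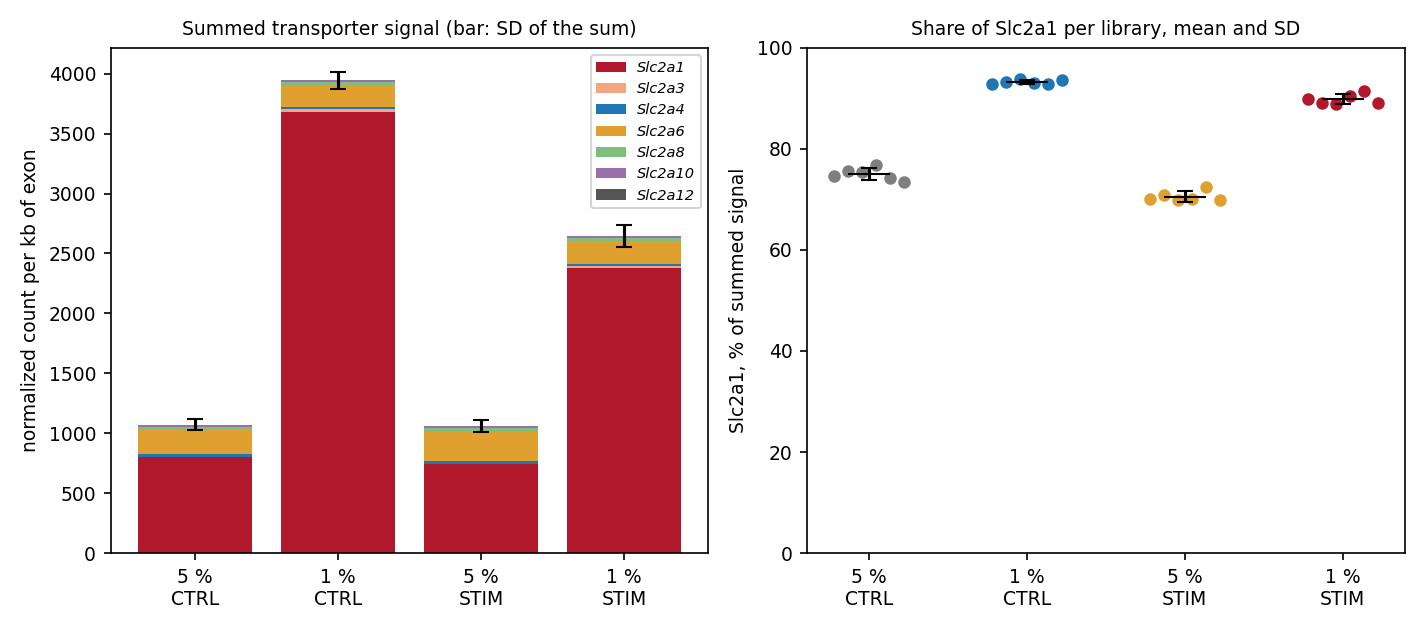
Left, summed normalized counts per kb of exon (y axis) of the 7 transporters by group (x axis), stacked by gene as group means, with the SD of the sum over 6 libraries. Right, the share of Slc2a1 in that sum (y axis, %) in each library (points) with mean and SD. The share lies between 69.8 and 76.7 % in all libraries under 5 % O2 and between 88.8 and 93.8 % under 1 % O2.

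Genes whose pattern over the 24 libraries was most like that of a member were found by Pearson's r of log2(normalized count + 1) among the 10795 genes that averaged 100 or more. The libraries share 4 groups, so r mostly follows the group means, and it is given as a description. Nearest to Slc2a1 were Ak4 (r = 0.997), a mitochondrial adenylate kinase, Zbtb4 (0.996), a zinc finger repressor, and Kdm4b (0.995), a histone demethylase. Ak4 had means of 725 under 5 % and 3545 under 1 % O2 without stimulation, and of 681 and 2520 with it. Nearest to Slc2a3 were the enolase gene Eno2 (r = 0.984), Nampt (0.984) and S100pbp (0.983).

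For Slc2a4 the highest values were lower. They belonged to Tbc1d4 (r = 0.834), Acadvl (0.823), an enzyme of fatty acid oxidation, and the kinase gene Mapkapk2 (0.815). Tbc1d4 encodes a Rab GTPase-activating protein, also called AS160, that holds GLUT4 vesicles back. Nearest to Txnip were Il4ra (r = 0.958), Epha2 (0.956) and Notch1 (0.951), which all encode cell-surface receptors. Among the members themselves, Slc2a1 and Slc2a3 had r = 0.978 and Txnip and Arrdc4 r = 0.601.

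Other genes of the pathway were read from lists. Of the 5 other SLC2 genes, Slc2a13, which encodes an inositol transporter, was the 1 tested, with means of 139 in 5 % CTRL and 104 in 1 % CTRL. It was called lower under 1 % O2 without stimulation (−0.42, limma adjusted p = 0.000451) and with it (−0.31, limma adjusted p = 0.00885). Slc2a2, Slc2a5, Slc2a7 and Slc2a9 had at most 13.4 normalized counts. The 6 sodium-coupled transporters of the SLC5 family summed to at most 6.14 per library and were not tested.

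All 17 genes of GLUT4 vesicle traffic were tested. Under 1 % O2, 5 were called higher and 7 lower without stimulation, and 3 higher and 8 lower with it, with medians of −0.02 and −0.09. Over all genes tested, 29.4 % were called higher and 30.5 % lower without stimulation, and 29 % and 28.4 % with it. In the list, the genes of the 2 Rab GTPase-activating proteins that restrain GLUT4 vesicles were among those that fell. Tbc1d1 went from 8841 ± 288 in 5 % CTRL to 5904 ± 152 in 1 % CTRL, with −0.58 as its log2 fold change (limma adjusted p = 1.41e-18). Tbc1d4 went from 297 ± 22.1 to 175 ± 21.8, with −0.76 on that scale (limma adjusted p = 7.42e-10).

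Rab8a, a small GTPase on those vesicles, was higher at 0.49 (limma adjusted p = 5.75e-14). In stimulated myotubes the same 3 genes led the list, at −0.65 for Tbc1d1, −0.53 for Tbc1d4 and 0.45 for Rab8a. Stimulation was followed by 0 higher and 2 lower calls at 5 % O2, Rab10 at −0.12 and Rab8a at −0.10. At 1 % O2, 2 were called higher and 5 lower, led by Tbc1d4 at 0.33, Myo1c at −0.15 and Rab8a at −0.14. Over all genes tested, stimulation gave 9.44 % higher and 12 % lower at 5 % O2, and 11.5 % and 10.8 % at 1 % O2. Interactions were called for Rhoq (−0.13) and Myo1c (−0.10), where 5.43 % of all genes tested had a negative one called.

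Of the glucose-sensing factors, Mlxip (MondoA) and Mlx were tested, and Mlxipl had at most 3.14 normalized counts. Mlxip was lower under 1 % O2 in unstimulated myotubes (−0.16, limma adjusted p = 0.000115). Mlx was lower with stimulation at 5 % O2 (−0.23, limma adjusted p = 0.00129) and at 1 % O2 (−0.20, limma adjusted p = 0.00323).

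Among the other alpha-arrestins and thioredoxins, Arrdc3 moved against Txnip. Arrdc3 encodes an alpha-arrestin known for control of adrenergic receptors. Its means were 662 ± 42.3 under 5 % and 1176 ± 70.3 under 1 % O2 without stimulation, and 1561 ± 120 and 3017 ± 187 with it. No 2 of these groups overlapped. The log2 fold change was 0.83 under 1 % O2 without stimulation, 0.95 with it, 1.24 with stimulation at 5 % O2 and 1.36 at 1 % O2 (limma adjusted p = 6.94e-16, 2.60e-17, 3.77e-19 and 1.89e-20).

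In the rest of that list, Txn2 was higher under 1 % O2 in both comparisons (0.12 and 0.19), and Arrdc2 was lower under 1 % O2 after stimulation (−0.21). With stimulation at 5 % O2, Arrdc2 and Txn1 were higher (0.41 and 0.23) and Txn2 was lower (−0.14, limma adjusted p = 0.00437). At 1 % O2 no other gene of the list was called with stimulation. Arrdc5 was not tested.

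All 5 ubiquitin ligases that alpha-arrestins recruit were tested. Over all genes tested, the O2 comparisons called 29.4 % higher and 30.5 % lower without stimulation, and 29 % and 28.4 % with it. Stimulation called 9.44 % higher and 12 % lower at 5 % O2, and 11.5 % and 10.8 % at 1 % O2. A positive interaction was called for 5.88 %. Under 1 % O2 without stimulation, Wwp2 (−0.27), Nedd4l (−0.21) and Itch (−0.20) were called lower and Nedd4 higher. Under 1 % O2 in stimulated myotubes Nedd4 (0.20) was higher, Wwp2 (−0.19) and Nedd4l (−0.14) lower, and 1 more of the 5 was higher. With stimulation Wwp2 (−0.13) and Nedd4 (−0.11) were lower at 5 % O2, and Itch (0.16) was higher at 1 % O2 with an interaction of 0.21 (limma adjusted p = 0.00881).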

How the data were processed

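RNA of 24 C2C12 cultures was measured by RNA sequencing, with groups and replicates taken from the labels. The authors sequenced stranded mRNA libraries from a single end, aligned reads with STAR 2.5.4b to GRCm38, counted them per gene with RSEM 1.3.0 at default settings, which ignore strand, and deposited the counts divided by each library's DESeq2 size factor (a normalized signal). Fold changes, p-values and calls of the authors' own comparisons fill another deposited table, which was not used. Whole reads were recovered from the step of each library, and 100 % of values came out whole (tolerance 0.01). GENCODE M21 held 99.5 % of the listed genes.

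The 14541 genes that reached 10 normalized counts in 6 or more of the 24 libraries were tested in limma 3.58.1 (R 4.3.3, lmFit, contrasts.fit, eBayes with trend and robust) on log2(normalized count + 1), with 4 group means and Benjamini-Hochberg adjustment over all genes. Two-sided exact permutation tests in SciPy 1.17.1 compared ratios between members and shares, and levels per kb by sign flips with 0.1 added. The labels call the replicates biological without saying what separates them. The members, lists and pairs were chosen with earlier results of these data known. Named genes are the 9 members, up to 3 called genes of each list and comparison (largest change, with 100 or more as the mean of the higher group), and the 3 genes most like each of 4 members. Alternatives were to add 10 in place of 1, to drop the filter, to block on the replicate number, to fit only the 2 groups of a comparison, to rescale libraries to equal totals, an adjusted p under 0.01, leaving out each library, and edgeR 4.0.16, DESeq2 1.42.0 and limma voom on whole reads. For ratios and shares they were a pseudocount of 10, medians and other lengths.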

Additional observations from a re-analysis of the deposited data

Results flagged for a closer look

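In 3 groups of 6 libraries, 1 library lay apart from the other 5 by Dixon's test at the 95 % level, of 40 groups checked, where chance marks about 1 in 20. Slc2a1 in 5 % STIM was lowest in replicate 6, at 2364 normalized counts. Slc2a4 in 1 % STIM was lowest in replicate 1, at 35.1. The share of Slc2a1 in the transporter sum in 5 % STIM was highest in replicate 5, at 72.5 %.

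The response to stimulation under 1 % O2 minus that under 5 % O2 differed from 0 for Slc2a1 (−0.52), Slc2a3 (−0.99) and Txnip (0.25), on the log2 scale by the interaction term of the limma fit.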

How the results depend on the processing

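Rescaling libraries to equal totals moved the split of calls over all genes from 4271 higher and 4437 lower to 5670 and 3378 for 1 % CTRL against 5 % CTRL, from 4210 and 4136 to 5466 and 3182 for 1 % STIM against 5 % STIM, from 1372 and 1743 to 1860 and 1133 for 5 % STIM against 5 % CTRL, and from 1668 and 1577 to 2142 and 1293 for 1 % STIM against 1 % CTRL, with medians of at most 0.08. The number of members called stayed within 1.5 times the reported number in all 164 repeats, and 1218 of 1271 repeats of single log2 fold changes kept direction and call. All 56 repeats of the share of Slc2a1 did so too.

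The changes of sign were in values that were not called. With equal totals they were Slc2a8 between the unstimulated O2 groups (0.043) and Slc2a10 with stimulation at 5 % O2 (0.018), and on whole reads Slc2a8 with stimulation at 1 % O2 (−0.00019 in edgeR, −0.00056 in DESeq2). When single libraries were left out, Slc2a8 ranged from −0.099 to 0.015 between the unstimulated O2 groups and from −0.043 to 0.072 with stimulation at 1 % O2, Slc2a3 from −0.053 to 0.34 and Slc2a10 from −0.094 to 0.071 with stimulation at 5 % O2, and the interaction of Slc2a4 from −0.076 to 0.18. The difference of response of Arrdc4 and Txnip ranged from −0.0025 to 0.14 between the unstimulated O2 groups, from −0.024 to 0.15 with stimulation at 5 % O2 (−0.045 for group medians) and from 0.17 to 0.28 at 1 % O2 (0.21, now called, with a pseudocount of 10). That of Slc2a3 and Slc2a1 with stimulation at 1 % O2 ranged from −0.35 to −0.25 and was −0.32, no longer called, for group medians. The causes were not tested. Without the filter, which adds genes to the adjustment, the interaction of Slc2a3 (adjusted p = 0.0612) and Slc2a10 with stimulation at 1 % O2 (adjusted p = 0.0687) were no longer called in limma. With equal totals Slc2a10 between the stimulated O2 groups was called (0.34, adjusted p = 0.0463), and Slc2a6 between the unstimulated O2 groups was called when these 2 groups were fitted alone (adjusted p = 0.032).

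Libraries with the same replicate number in different groups showed no clear shared deviation. Their median correlation of deviations was 0.0062 (−0.148 to 0.155), with 2 of 36 over 0.1. Whether same-numbered cultures were handled together cannot be told from this. With the replicate block 5, 5, 3, 4 and 3 members were called in the 5 tests, as without it, and over all genes 8730 were called in place of 8708 between the unstimulated O2 groups. Depth limits Slc2a12, Slc2a3 under 5 % O2 and Arrdc4, which rest on few reads per library.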
